A study of Mus musculus with 36 samples.

Results

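Aminoacyl-tRNA synthetases are the enzymes that join each amino acid to its transfer RNA, the step that sets the genetic code. The genes described here are the 35 named synthetases of the deposited kidney tables, 20 that act in the cytosol and 15 that act in mitochondria, chosen by gene symbol alone from 24066 symbols that occur once. A symbol that ends in 2 marks a mitochondrial enzyme, while Farsa and Farsb encode the subunits of the cytosolic phenylalanine enzyme. All 35 passed the filter on low values, a mean of at least 1 FPKM (fragments scaled to transcript length and library size), as did 11144 genes in all.

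The kidneys came from male wild-type C57BL/6J mice that had free access to normal chow or to a high-fat diet from 6 weeks of age, in 12 h of light and 12 h of dark, and the labels give 16 weeks for the harvest. Tissue was taken at zeitgeber times (ZT, hours after lights on) 0, 4, 8, 12, 16 and 20 and each of the 12 combinations of diet and time holds 3 mice, 36 libraries in all. All mice shared sex, strain and genotype, and diet and time of day were what the study varied. The title asks how the high-fat diet changes daily cycles of the kidney. In bulk tissue, fewer cells of a type and less RNA per cell cannot be told apart.

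In the cytosol most amino acids have an enzyme of their own, and several of these enzymes sit together in the multi-synthetase complex around the scaffold proteins Aimp1, Aimp2 and Eef1e1. Mitochondria translate the few proteins of their own genome with a separate set, encoded in the nucleus, and Gars and Kars, for glycine and lysine, each serve both compartments from a single gene. When amino acids run short, the kinase GCN2 senses uncharged transfer RNA and the transcription factor ATF4 raises many cytosolic synthetase genes through a short DNA element, the C/EBP-ATF response element.

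Relative depth, estimated from the steps between low values, ranged from 0.337 to 1.448 between libraries, and absolute depth is unknown. Adrenal cortex transcripts (6 of 6 markers found) summed to 45.6, 313, 506 and 2413 FPKM in the chow libraries ZT16 replicate 4, ZT4 replicate 3, ZT4 replicate 2 and ZT0 replicate 5. They were at most 1.11 FPKM in every high-fat library. The 8 adipocyte markers summed to a median of 861 FPKM under chow (217 to 2956) and 307 FPKM under the high-fat diet (97.5 to 839.6). Proximal tubule markers summed to a median of 77373 FPKM under chow and 78534 FPKM under the high-fat diet, and exocrine pancreas markers to at most 0.401 FPKM. The 2 chow libraries ZT4 replicates 2 and 4 stood apart in the trend of their values over transcript GC content, with slopes of 0.42 and -0.37 log2 per 10 points of GC. Replicate 4 of that group held the lowest or highest value of 16 of the 35 synthetases, and replicate 2 that of 13.

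The windows of 250 bases upstream of the RefSeq gene start were searched for the element TGATGNAA on both strands, for the E-box CACGTG bound by the clock activators, and for the D-box TTATGTAA or TTACGTAA bound by Dbp and related factors. A window was at hand for 27 of the 35 genes (RefSeq, GRCm38.p6). TGATGNAA occurred in 3 of them, Aars, Gars and Tars, and in 3.45% of all 32851 promoters searched. CACGTG occurred in Aars, Farsb and Iars, and in 6.02% of all promoters. The D-box letters occurred in 0 of the 27 windows and in 0.932% of all promoters. A match is a description of letters and not a measured binding site. The 3 windows with TGATGNAA are shown because Gars is the synthetase that differed between the diets and Aars leads the group that peaked at the end of the night. That of Qars, which peaked by day, is shown beside them. They lie at chr8:111033592-111033841, plus strand (Aars), chr6:55037751-55038000, plus strand (Gars), chr15:11399659-11399908, minus strand (Tars) and chr9:108507755-108508004, plus strand (Qars). Each is written 5′ to 3′ on the strand of its gene and ends at the base before the RefSeq gene start. Capitals mark the letters that match TGATGNAA, here on the opposite strand in all 3. GENCODE M21 places the starts of Aars and Qars farther upstream, at 111033144 and 108507706, so both windows lie inside its gene bounds. Its Tars start, at 11399665, also falls within the Tars window.
Aars: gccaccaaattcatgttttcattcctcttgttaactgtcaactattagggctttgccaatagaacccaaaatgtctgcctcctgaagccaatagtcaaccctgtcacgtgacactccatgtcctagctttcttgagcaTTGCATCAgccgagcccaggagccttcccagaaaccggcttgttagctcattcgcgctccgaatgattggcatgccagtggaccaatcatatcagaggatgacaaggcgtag
Gars: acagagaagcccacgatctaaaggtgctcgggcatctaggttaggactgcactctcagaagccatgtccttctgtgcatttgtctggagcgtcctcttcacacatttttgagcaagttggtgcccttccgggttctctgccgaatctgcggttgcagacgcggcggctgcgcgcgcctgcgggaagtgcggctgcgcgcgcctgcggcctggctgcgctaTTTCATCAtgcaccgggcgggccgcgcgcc
Tars: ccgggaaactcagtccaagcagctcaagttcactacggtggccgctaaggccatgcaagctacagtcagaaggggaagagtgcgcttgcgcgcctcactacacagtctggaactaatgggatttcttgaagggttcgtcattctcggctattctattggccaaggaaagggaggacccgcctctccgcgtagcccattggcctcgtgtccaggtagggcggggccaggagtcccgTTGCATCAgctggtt
Qars: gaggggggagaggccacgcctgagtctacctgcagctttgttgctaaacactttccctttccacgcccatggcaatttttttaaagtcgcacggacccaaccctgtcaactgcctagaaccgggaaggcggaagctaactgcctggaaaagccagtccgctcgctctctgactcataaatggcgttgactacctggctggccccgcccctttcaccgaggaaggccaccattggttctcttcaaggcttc

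The cytosolic enzymes had the higher median level and lay closer together. Mean FPKM over the 36 libraries ran from 5.11 (Cars, the cysteine enzyme) to 40.1 (Qars, the glutamine enzyme) in the cytosolic class, with a median of 16.7. It ran from 1.47 (Mars2, the mitochondrial methionine enzyme) to 134.9 (Lars2, the mitochondrial leucine enzyme) in the mitochondrial class, with a median of 8.34. FPKM is scaled to transcript length, so these levels can be set beside each other. Kars followed Qars closely at 39.1 FPKM, and their ranges over libraries overlapped. Wars2, Ears2 and Nars2, for tryptophan, glutamate and asparagine, lay near Mars2 at 1.70, 1.95 and 2.59 FPKM. Fars2, the mitochondrial phenylalanine enzyme, was second in its class at 51.9 FPKM. Its gene overlaps Lyrm4 on the other strand, and whether the counting used strand is not given in the sources used here.

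**Figure D1:**
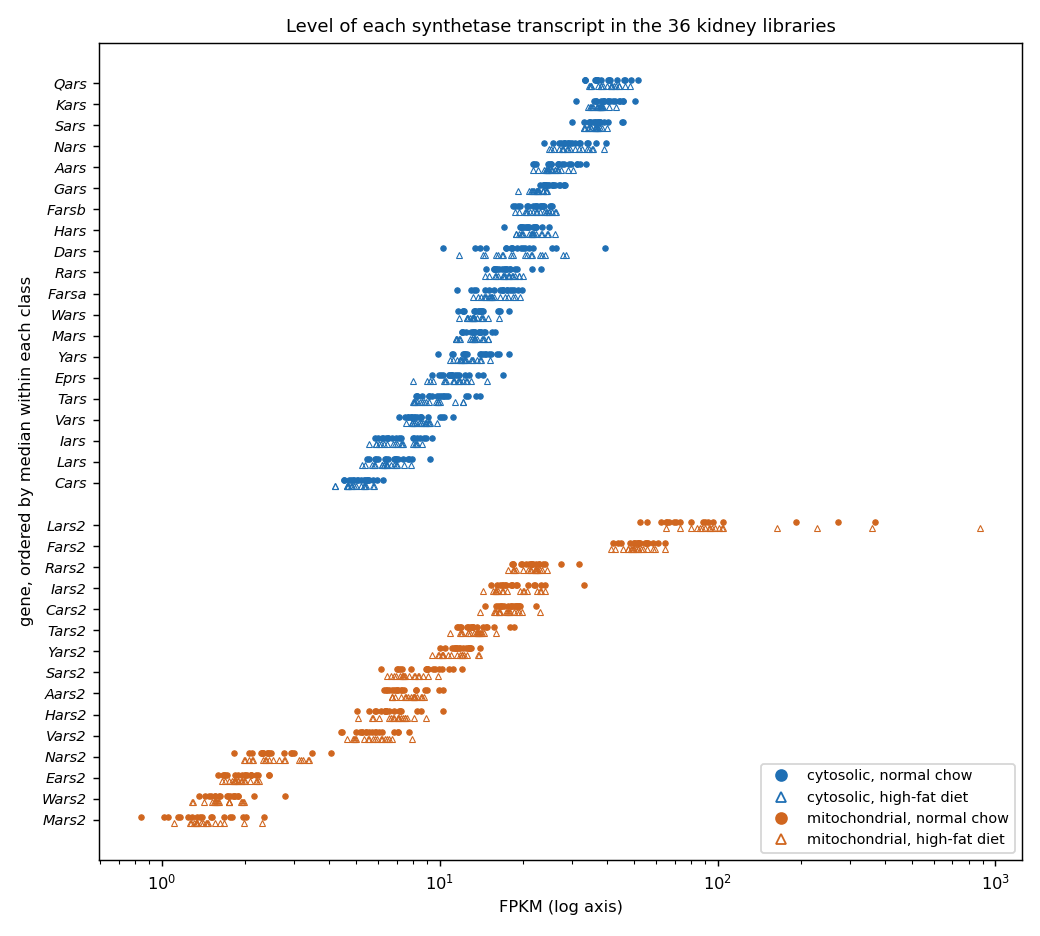
FPKM of each of the 35 synthetases on a log axis, 1 symbol per library, with filled circles for normal chow and open triangles for the high-fat diet. Cytosolic genes lie in a band from Cars at a mean of 5.11 to Qars at 40.1, while mitochondrial genes spread from Mars2 at 1.47 to Lars2 at 134.9, and Lars2 has the widest spread over libraries.

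Summed over its 20 genes, the cytosolic class gave 388 ± 21.2 FPKM under chow and 376 ± 18.7 FPKM under the high-fat diet (SD, n = 18 libraries each). The mitochondrial class without Lars2 gave 175 ± 9.31 FPKM under chow and 169 ± 8.90 FPKM under the high-fat diet. With Lars2 these sums became 284 ± 84.8 and 329 ± 189 FPKM. No test was run on the sums, whose ranges over libraries overlapped between the diets in both classes.

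Lars2 spread over a 16.8-fold range. Its chow libraries ran from 52.6 FPKM (ZT0 replicate 1) through a median of 76.6 to 367 FPKM (ZT12 replicate 2). Its high-fat libraries ran from 65.1 through 94.6 to 883 FPKM (ZT20 replicate 1). The next highest libraries were high-fat ZT16 replicate 1 at 360 FPKM, chow ZT8 replicate 1 at 272 FPKM and high-fat ZT16 replicate 3 at 228 FPKM. These 5 libraries came from both diets and 4 times, and no group had all 3 of its libraries among them, although high-fat ZT16 had 2. Across the 36 libraries its log2 level followed that of Rn45s, the precursor of ribosomal RNA, with Pearson's r of 0.97 and Spearman's rho of 0.92. Without the 2 libraries farthest from the median r was 0.94, and it was 0.95 within chow and 0.99 within the high-fat diet. Rn45s ranked 1 of the 6899 genes of mean FPKM of at least 5 compared with Lars2 and was singled out after that scan, so no p is given. Among the other 30 members of that level, r with Rn45s ran from -0.45 to 0.34. Libraries share preparation and depth, and the part of ribosomal RNA in the Lars2 values was not tested.

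**Figure D2:**
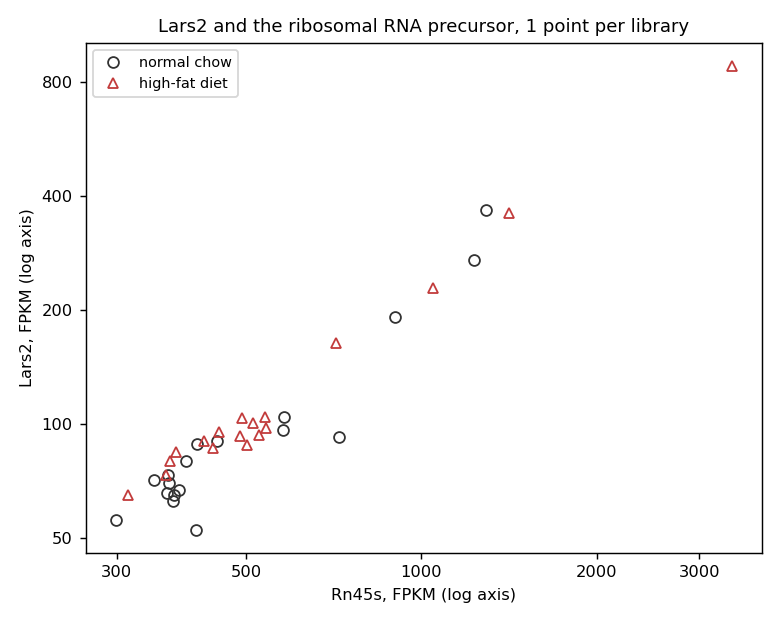
Lars2 against the ribosomal RNA precursor Rn45s in FPKM on log axes, 1 point per library, circles for normal chow and triangles for the high-fat diet. The points of both diets follow 1 line, up to the high-fat library with 883 FPKM of Lars2.

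1 of the 35 synthetases differed between the diets over the day. Averaged over the 6 times, 1 of the 20 cytosolic enzymes fell under the high-fat diet and 0 rose, and of the 15 mitochondrial enzymes 0 fell and 0 rose, at an adjusted p under 0.05 (limma on log2(FPKM + 0.5), Benjamini-Hochberg over all 11144 genes). Over all genes tested 11.4% fell and 5.25% rose, so that 68.4% of the calls were lower. That share was 49.97% when libraries were rescaled by median ratios and 42.1% after a correction for GC content, with Gars lower in both. At an unadjusted p under 0.05 the counts were 5 of 20 cytosolic and 1 of 15 mitochondrial enzymes, beside 3344 of 11144 genes in all. The median log2 change was -0.05 for the cytosolic enzymes, with 14 of 20 below 0, and -0.04 for the mitochondrial ones, with 9 of 15 below 0, beside -0.03 for all genes. Of all genes tested, 6831 of 11144 lay below 0. After the GC correction 12 of 20 cytosolic and 7 of 15 mitochondrial enzymes lay below 0. Without Lars2, the changes of the other 34 genes ran from -0.18 to 0.04, and the median size of a change over all 35 was 3.02%. Each diet has a table of its own, and it is not stated in the labels that Cuffnorm normalized them together, so a difference between tables and the diet cannot be told apart. Whether the 3 mice of a group were independent beyond being separate samples is not stated either, and p-values measure the spread between these samples.

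The enzyme that fell was Gars, which charges glycine transfer RNA in both compartments (chr6:55038007-55079500, plus strand, GENCODE M21 on GRCm38). Under chow its FPKM values were 27.98, 27.1 and 25.5 at ZT0, 28.1, 26.8 and 24.6 at ZT4, 22.9, 23.5 and 24.1 at ZT8, 24.2, 24.8 and 23.8 at ZT12, 28.02, 23.7 and 23.96 at ZT16, and 25.5, 25.5 and 25.98 at ZT20. Under the high-fat diet they were 21.8, 24.2 and 22.6 at ZT0, 23.5, 23.6 and 21.8 at ZT4, 23.6, 22.7 and 22.6 at ZT8, 20.9, 21.4 and 19.2 at ZT12, 22.4, 22.3 and 24.2 at ZT16, and 21.3, 24.3 and 22.4 at ZT20. The high-fat mean was lower at all 6 times, and at 4 of them every high-fat library lay below every chow library. The mean over the day was 25.3 ± 1.67 FPKM under chow and 22.5 ± 1.33 FPKM under the high-fat diet (SD, n = 18 each), a log2 change of -0.17 ± 0.03 (SE, adjusted p = 0.000128, limma), a change of -11.04%. Gars passed the threshold under every one of the 50 alternatives run, with a change between -0.18 and -0.13 and an adjusted p of at most 0.00718. Without the 4 libraries that held adrenal transcripts the change was -0.16, in a fit where chow ZT4 was replicate 4 alone. With the adipocyte score as a covariate the change was -0.18 (adjusted p = 0.00368, limma).

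The next cytosolic enzymes by p missed the threshold. Yars, the tyrosine enzyme, averaged 13.7 ± 2.08 FPKM under chow and 12.6 ± 1.10 FPKM under the high-fat diet, a log2 change of -0.10 ± 0.04 (adjusted p = 0.0582, limma). Kars averaged 40.7 ± 4.49 and 37.5 ± 2.15 FPKM, with the high-fat mean lower at all 6 times (log2 change -0.11 ± 0.05, adjusted p = 0.0882, limma). Aars, the alanine enzyme, averaged 27.1 ± 3.54 and 25.4 ± 2.11 FPKM (log2 change -0.09 ± 0.04, adjusted p = 0.109, limma). After the GC correction the estimates were -0.05 for Yars, -0.10 for Kars and -0.01 for Aars. Without the 4 adrenal-bearing libraries that of Kars was -0.05 log2. That fit left chow ZT4 to replicate 4 alone, which held the lowest Kars value of the 36 libraries, 31.1 FPKM. The calls for these genes also moved with single libraries: leaving out chow ZT4 replicate 4 brought the count of cytosolic enzymes that fell to 3, with Yars and Kars beside Gars. Leaving out high-fat ZT16 replicate 4 also gave 3, with Yars and Aars. The count was 2 without chow ZT0 replicate 4, ZT4 replicate 2, ZT8 replicate 1, ZT8 replicate 4 or ZT12 replicate 2, or without high-fat ZT20 replicate 4.

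Among the mitochondrial enzymes Sars2, for serine, had the smallest p (chr7:28741992-28753871, plus strand). Its start lies within 1 kb of that of Mrps12, a mitochondrial ribosomal protein gene on the other strand. Under chow its FPKM values were 10.2, 9.44 and 9.06 at ZT0, 11.99, 11.1 and 6.15 at ZT4, 7.31, 8.95 and 9.603 at ZT8, 9.002, 10.8 and 8.99 at ZT12, 7.02, 7.202 and 7.89 at ZT16, and 7.11, 9.95 and 8.97 at ZT20. Under the high-fat diet they were 6.86, 7.52 and 6.66 at ZT0, 7.79, 7.37 and 9.898 at ZT4, 7.405, 8.19 and 7.17 at ZT8, 7.35, 8.69 and 8.39 at ZT12, 6.48, 6.99 and 7.42 at ZT16, and 8.07, 9.07 and 8.41 at ZT20. All 3 high-fat libraries lay below the chow libraries at 2 of the 6 times, and the high-fat mean was lower at all 6. The means over the day were 8.93 ± 1.58 and 7.76 ± 0.89 FPKM, a log2 change of -0.18 ± 0.06 (adjusted p = 0.0549, limma). The gene passed the threshold, as the 1 mitochondrial enzyme to fall, when chow ZT4 replicate 4, chow ZT8 replicate 1, chow ZT20 replicate 1 or high-fat ZT4 replicate 5 was left out. Its estimate was -0.08 log2 after the GC correction (adjusted p = 0.197, limma) and -0.09 log2 without the 4 adrenal-bearing libraries. The latter fit left chow ZT4 to replicate 4 alone, which held the lowest Sars2 value of the 36 libraries, 6.15 FPKM. Yars2 and Iars2, for tyrosine and isoleucine, changed by -0.08 ± 0.05 and -0.07 ± 0.07 (adjusted p = 0.255 and 0.507, limma). Lars2 had the largest estimate of all members and the widest interval, a log2 change of 0.37 with a 95% interval from -0.18 to 0.92 (adjusted p = 0.375, limma).

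**Figure D3:**
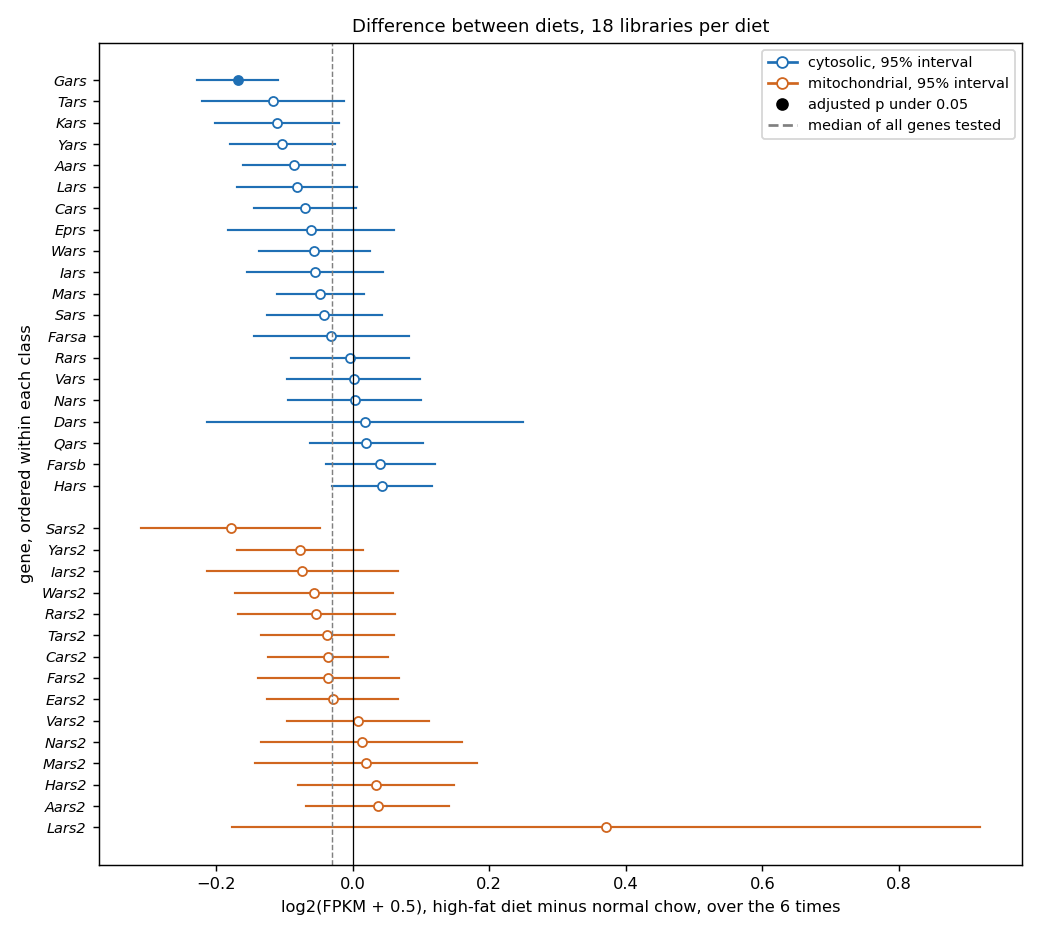
Log2 difference in level between the high-fat diet and normal chow over the 6 times, with 95% intervals, for the 35 synthetases ordered within each class. The dashed line is the median of all genes tested at -0.03, and the filled symbol, Gars at -0.17, is the member with an adjusted p under 0.05.

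At single times 0 of the 35 synthetases passed the threshold. Over all genes the share that passed was 1.59% at ZT0, 1.61% at ZT4, 0.332% at ZT8, 0.368% at ZT12, 0.556% at ZT16 and 0.26% at ZT20. At an unadjusted p under 0.05 the members numbered 5, 8, 1, 1, 0 and 3 in that order of times. By the same cut all genes numbered 1570, 1933, 1066, 794, 816 and 719 of 11144. At ZT0 and at ZT4, 28 of 35 estimates lay below 0, against 59.6% and 70.2% of all genes. At ZT8 and ZT16 it was 13 of 35, against 46.9% and 49.4%. At ZT0 Aars had the smallest p, with a mean of 32.2 ± 1.27 FPKM under chow and 26.3 ± 2.71 FPKM under the high-fat diet (n = 3 each, log2 difference -0.30 ± 0.09, adjusted p = 0.0975, limma). At ZT4 it was Mars, the methionine enzyme, with 14.2 ± 1.12 and 11.6 ± 0.14 FPKM (log2 difference -0.28 ± 0.08, adjusted p = 0.0624, limma). The bounds of the Mars gene overlap those of the stress gene Ddit3 on the other strand, and whether the counting used strand is not given. The search for shared transcript sequence listed no stretch for this pair, and the part of Ddit3 in the Mars values was not tested.

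The ZT4 comparison turned on the chow libraries. Without chow ZT4 replicate 2 the count at ZT4 was 6, and without chow ZT0 replicate 5 it was 1. Without the 4 libraries with adrenal transcripts chow ZT4 was represented by replicate 4 alone, the library whose GC slope was -0.37, so no count is given for that fit. The lone library is assumed in that fit to vary like the other groups. Without chow ZT4 replicate 4 the count at ZT0 was 1.

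Rhythms over the day were called for 11 of the 35 enzymes. A rhythm of 24 h, tested as a cosine and a sine term shared by both diets, was called for 8 of 20 cytosolic and 3 of 15 mitochondrial enzymes (limma, adjusted p under 0.05), and for 25.3% of all genes tested. The median peak-to-trough difference was 0.17 log2 for the cytosolic and 0.13 log2 for the mitochondrial class, beside 0.19 log2 for all genes. As a check of the time labels, all 12 clock genes listed were rhythmic, with Dbp, a clock output factor, at 4.91 log2 from trough to peak and a peak at ZT9.0.

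**Figure D4:**
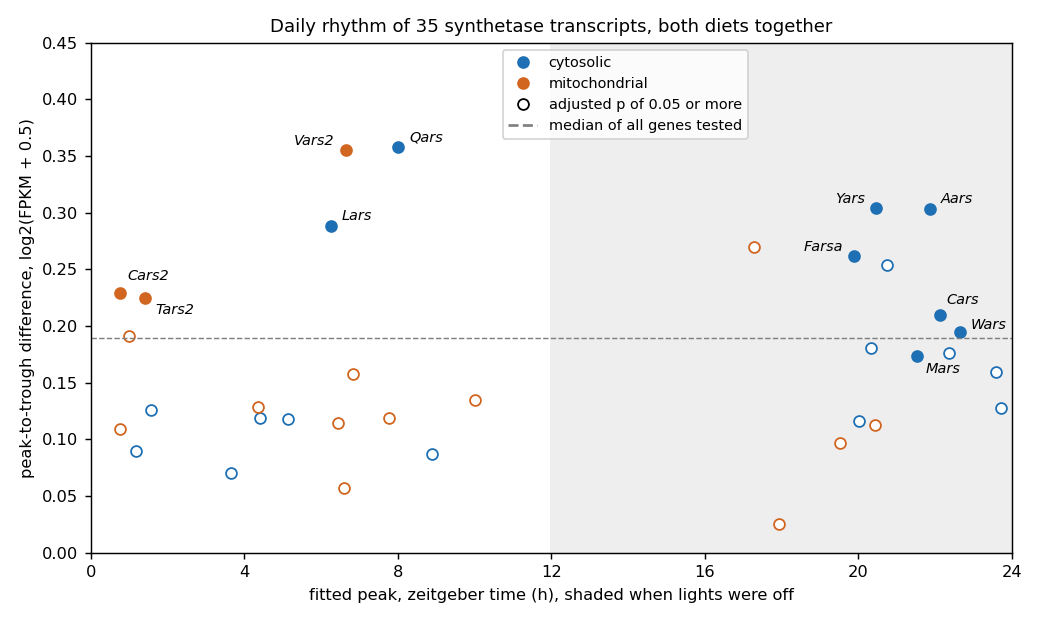
Fitted peak time in h after lights on against the peak-to-trough difference in log2(FPKM + 0.5), both diets together, for the 35 synthetases. Filled and named symbols passed the threshold: 6 cytosolic enzymes peak between 19.9 and 22.6 h, while Qars, Lars and Vars2 peak between 6.3 and 8.0 h, and the dashed line marks the median of all genes at 0.19.

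Of the 8 rhythmic cytosolic enzymes, 6 peaked late in the dark phase: Farsa at ZT19.9, Yars at ZT20.5, Mars at ZT21.5, Aars at ZT21.9, Cars at ZT22.1 and Wars, the tryptophan enzyme, at ZT22.6. The other two, Lars for leucine and Qars for glutamine, peaked in the light phase at ZT6.3 and ZT8.0. The mitochondrial enzymes Cars2 and Tars2, for cysteine and threonine, peaked just after lights on at ZT0.76 and ZT1.4, and Vars2, for valine, at ZT6.6. Among all rhythmic genes 22.4% peaked between ZT20 and ZT24 and 30.03% between ZT4 and ZT8. 5 of the rhythmic cytosolic enzymes peaked between ZT20 and ZT24. Across the 36 libraries the 6 late-night enzymes correlated with each other at a median r of 0.67 over 15 pairs (0.45 to 0.81), and with the 3 light-phase enzymes at a median r of -0.09 over 18 pairs (-0.42 to 0.19). The 3 light-phase enzymes correlated with each other at a median r of 0.39 over 3 pairs (0.37 to 0.77). The groups were formed from peaks fitted in these same libraries, so a higher r within than between groups was built in. These correlations describe libraries that share depth and composition.

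Qars gave the smallest p of all members (chr9:108507706-108515941, plus strand). Its chow FPKM values were 36.6, 37.2 and 37.9 at ZT0, 51.9, 40.9 and 36.7 at ZT4, 40.3, 46.1 and 46.6 at ZT8, 40.8, 48.96 and 43.6 at ZT12, 33.4, 36.2 and 36.5 at ZT16, and 33.3, 33.5 and 36.8 at ZT20. Its high-fat values were 37.96, 37.9 and 34.96 at ZT0, 39.9, 44.4 and 48.4 at ZT4, 41.7, 44.4 and 41.3 at ZT8, 41.4, 43.2 and 46.4 at ZT12, 37.03, 35.2 and 42.4 at ZT16, and 34.5, 34.8 and 38.8 at ZT20. In both diets the group means lay between 42.5 and 44.5 FPKM from ZT4 to ZT12 and between 34.5 and 38.2 FPKM at the other times. The fitted peak-to-trough difference was 0.36 ± 0.06 log2 (1.28-fold, SE, adjusted p = 3.44e-05, limma), with the peak at ZT8.0 ± 0.59 h. Within single diets it was 0.41 ± 0.09 log2 under chow (adjusted p = 0.0188, limma) and 0.31 ± 0.07 log2 under the high-fat diet (adjusted p = 0.0331, limma).

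Aars followed at almost the opposite phase (chr8:111033144-111057664, plus strand). Its chow FPKM values were 33.6, 31.1 and 31.99 at ZT0, 31.1, 25.1 and 25.2 at ZT4, 21.8, 21.7 and 24.7 at ZT8, 22.1, 26.7 and 24.5 at ZT12, 28.1, 26.6 and 27.5 at ZT16, and 26.8, 29.1 and 29.6 at ZT20. Its high-fat values were 29.1, 26.1 and 23.7 at ZT0, 25.1, 24.7 and 26.03 at ZT4, 24.1, 24.3 and 24.2 at ZT8, 24.5, 21.7 and 22.6 at ZT12, 25.3, 24.5 and 30.3 at ZT16, and 26.7, 26.4 and 27.3 at ZT20. Chow libraries were highest at ZT0, from 31.1 to 33.6 FPKM, and lowest at ZT8, from 21.7 to 24.7 FPKM. The peak-to-trough difference over both diets was 0.30 ± 0.06 log2 (adjusted p = 0.000343, limma) and the peak fell at ZT21.9 ± 0.70 h. It was 0.41 ± 0.08 log2 under chow (adjusted p = 0.0128, limma) and 0.20 ± 0.07 log2 under the high-fat diet (adjusted p = 0.219, limma). The last 1326 of the 5750 bases of the Aars transcript are shared on the same strand with Exosc6, a subunit of the RNA exosome, so part of its signal is uncertain. Exosc6 averaged 5.50 FPKM under chow, and peaked at ZT21.5 (0.33 log2 over both diets, adjusted p = 0.0108, limma).

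Yars (chr4:129189760-129219607, plus strand) had the smallest p of the members for a difference in rhythm between the diets, which did not pass after adjustment. Its chow FPKM values were 17.8, 14.6 and 15.1 at ZT0, 14.6, 12.4 and 12.3 at ZT4, 11.1, 9.86 and 12.2 at ZT8, 11.1, 12.6 and 12.1 at ZT12, 14.4, 15.3 and 16.1 at ZT16, and 14.1, 13.9 and 16.3 at ZT20. Its high-fat values were 13.9, 14.1 and 13.2 at ZT0, 12.1, 11.8 and 11.2 at ZT4, 12.2, 12.3 and 11.9 at ZT8, 12.5, 11.9 and 11.5 at ZT12, 13.02, 13.6 and 15.1 at ZT16, and 10.9, 12.2 and 13.1 at ZT20. Under chow the libraries of ZT0, ZT16 and ZT20 lay above those of ZT8 and ZT12 without overlap, while under the high-fat diet the ZT20 libraries overlapped those of ZT8 and ZT12. The peak-to-trough difference was 0.48 ± 0.10 log2 under chow (adjusted p = 0.0111, limma) and 0.14 ± 0.08 log2 under the high-fat diet (adjusted p = 0.583, limma). The test of the difference itself gave an unadjusted p of 0.0221 and an adjusted p of 1.0 (limma). For Lars2 that p was 0.0249 before adjustment, with fitted peaks at ZT8.5 under chow and ZT19.3 under the high-fat diet that rest on the high libraries named above. Over both diets Yars peaked at ZT20.5 ± 0.84 h with 0.30 ± 0.07 log2 (adjusted p = 0.00275, limma). The Yars gene overlaps C77080 on the other strand, which averaged 10.9 FPKM, and whether the counting used strand is not given.

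Lars, whose protein also reports leucine to the growth kinase mTORC1, ran from 5.97 ± 0.48 FPKM at ZT20 to 7.99 ± 1.15 FPKM at ZT4 under chow. Under the high-fat diet it ran from 5.60 ± 0.28 FPKM at ZT20 to 7.24 ± 0.73 FPKM at ZT8 (n = 3 each). Over both diets its peak-to-trough difference was 0.29 ± 0.06 log2 (adjusted p = 0.00301, limma). It passed the threshold under chow (adjusted p = 0.0417, limma), a call that was lost without any of 12 chow libraries in turn. Cars was highest at ZT0 in both diets, at 5.99 ± 0.26 FPKM under chow and 5.28 ± 0.58 FPKM under the high-fat diet (0.21 ± 0.05 log2 over both diets, adjusted p = 0.0106, limma).

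**Figure D5:**
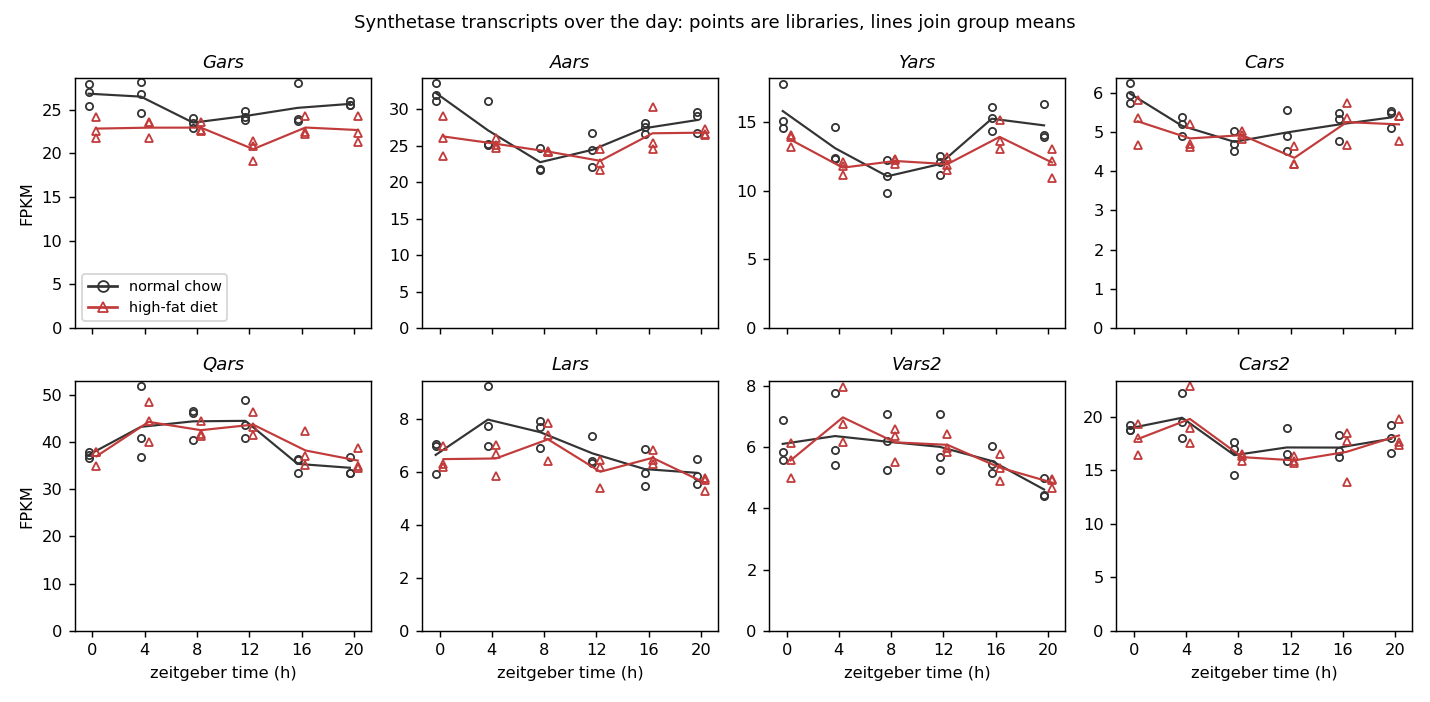
FPKM at the 6 zeitgeber times for 8 synthetases, with circles for normal chow libraries, triangles for high-fat libraries and lines through the means of 3. Gars lies lower under the high-fat diet at all 6 times, Aars, Yars and Cars are lowest between ZT4 and ZT12, and Qars, Lars and Vars2 are highest between ZT4 and ZT12.

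Vars2 led the mitochondrial enzymes (chr17:35655634-35667592, minus strand). Its chow FPKM values were 6.87, 5.86 and 5.59 at ZT0, 7.76, 5.91 and 5.42 at ZT4, 5.26, 6.19 and 7.08 at ZT8, 5.26, 7.08 and 5.69 at ZT12, 5.15, 6.05 and 5.44 at ZT16, and 4.41, 4.45 and 4.99 at ZT20. Its high-fat values were 6.13, 5.58 and 4.99 at ZT0, 6.18, 6.76 and 7.98 at ZT4, 5.52, 6.599 and 6.35 at ZT8, 5.96, 6.44 and 5.83 at ZT12, 4.89, 5.78 and 5.33 at ZT16, and 4.65, 4.93 and 4.95 at ZT20. In both diets ZT20 was the lowest time, with the 6 libraries between 4.41 and 4.99 FPKM. The difference from trough to peak was 0.36 ± 0.07 log2 (1.28-fold, adjusted p = 0.00149, limma), and within diets it passed under the high-fat diet (0.39 ± 0.09 log2, adjusted p = 0.033, limma) and not under chow (0.32 ± 0.12 log2, adjusted p = 0.233, limma). The test of the difference between these rhythms gave an adjusted p of 1.0 (limma). Cars2 ran from 16.4 ± 1.65 FPKM at ZT8 to 19.9 ± 2.12 FPKM at ZT4 under chow and from 15.9 ± 0.34 FPKM at ZT12 to 19.8 ± 2.77 FPKM at ZT4 under the high-fat diet (0.23 ± 0.06 log2, adjusted p = 0.0137, limma). A stretch of 171 bases of its transcript is 95.3% identical to Rpn2. Tars2 was highest at ZT0 under chow, at 16.1 ± 1.56 FPKM (0.22 ± 0.07 log2 over both diets, adjusted p = 0.0373, limma). Aars2, the next by p, missed the threshold (0.19 ± 0.08 log2, adjusted p = 0.137, limma).

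The rhythm calls differed in how firmly they held. Qars, Aars, Yars, Lars and Vars2 passed under all 50 alternatives, and Cars under all but the fit without ZT0 and ZT4. Cars2 was lost under median ratio rescaling, under both GC corrections and without ZT0 and ZT4. Tars2 was lost under 15 of the 50 alternatives, Wars under 14, Mars under 11 and Farsa under 5. The cytosolic count was 5 without chow ZT8 replicate 1 and 5 without high-fat ZT20 replicate 3. Over ZT8 to ZT20 alone it was 5 of 20, beside 1 of 15 mitochondrial enzymes.

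Within single diets fewer members passed. Under chow 4 of 20 cytosolic enzymes (Yars, Aars, Qars and Lars) and 0 of 15 mitochondrial enzymes were rhythmic, against 7.77% of all genes. Under the high-fat diet 1 cytosolic enzyme, Qars, and 1 mitochondrial enzyme, Vars2, were rhythmic, against 7.3% of all genes. A difference in rhythm between the diets was called for 0 of 35 members and for 0.0269% of all genes. Its unadjusted p was under 0.05 for 2 members, beside 353 of 11144 genes. The fitted peak-to-trough difference was smaller under the high-fat diet for 16 of 20 cytosolic and 9 of 15 mitochondrial enzymes, and for 6894 of 11144 genes in all.

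Split by known biology, the 8 synthetases of the multi-synthetase complex held 3 rhythmic genes (Lars, Mars and Qars), and the 12 cytosolic enzymes outside it held 5. Of the 12 cytosolic synthetases known as ATF4 targets, 6 were rhythmic, 5 of them with a peak between ZT20 and ZT24, and 1 (Gars) fell with the diet. Their median change with diet was -0.07 log2, with 11 of 12 below 0. The 8 other cytosolic enzymes held 2 rhythmic genes (Farsa and Qars) and 0 that changed with diet, with a median of 0.01 log2 and 3 of 8 below 0. Among all genes tested 25.3% were rhythmic, and 22.4% of the rhythmic ones peaked between ZT20 and ZT24. With diet 11.4% of all genes fell and 5.25% rose, and 6831 of 11144 estimates lay below 0, with a median of -0.03 log2. After the GC correction the median over all 20 cytosolic enzymes was -0.004 log2, with 12 below 0. The medians of the ATF4 targets and of the other enzymes after that correction are not given here. These counts describe lists chosen with earlier results known, and no test compared the splits.

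Partners of the enzymes showed changes with diet of their own. Of the 3 scaffolds, Aimp1 fell from a median of 30.1 to 28.2 FPKM (log2 change -0.12 ± 0.03, adjusted p = 0.013, limma), and peaked at ZT6.9. Its change with diet was lost under median ratio rescaling, under the GC correction, without the 4 adrenal-bearing libraries and with the adipocyte covariate. Of 12 mitochondrial charging partners 1 rose and 3 fell, where 5.25% of all genes rose and 11.4% fell. The split was 2 and 1 after the GC correction and without the adrenal-bearing libraries, 2 and 2 under median ratio rescaling, and 1 and 1 with the adipocyte covariate. Gatb, a subunit of the enzyme that makes glutaminyl-tRNA in mitochondria, averaged 32.8 ± 1.83 FPKM under chow and rose to 39.3 ± 2.40 FPKM (a log2 change of 0.26 ± 0.03 over 18 libraries per diet, adjusted p = 1.24e-06, limma). The other subunits of that enzyme did not follow Gatb. Gatc fell (log2 change -0.12 ± 0.04, adjusted p = 0.0217, limma) and Qrsl1 did not pass (0.01 ± 0.05, adjusted p = 0.913, limma). Gtpbp3 and Trmu, which modify mitochondrial transfer RNA, fell by 0.27 and 0.19 on the log2 scale (adjusted p = 8.86e-06 and 0.0168, limma).

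Among 8 further synthetase-related genes 2 fell: Dtd1, which removes D-amino acids from transfer RNA, changed by -0.20 ± 0.04 log2 (adjusted p = 0.00059, limma), and Ptrh2, a peptidyl-tRNA hydrolase, by -0.12 ± 0.04 log2 (adjusted p = 0.0429, limma). That count was 1 of 8 under median ratio and upper quartile rescaling, after the GC correction, with the adipocyte covariate and without the adrenal-bearing libraries, against 11.4% of all genes that fell. Of 13 genes of transfer RNA supply and elongation 1 rose, the elongation factor Eef1a1 (0.12 ± 0.04 log2, adjusted p = 0.0312, limma), and 1 fell, the RNA polymerase III factor Brf1 (-0.16 ± 0.04 log2, adjusted p = 0.00726, limma). None of the 13 was called with the adipocyte covariate, 0 rose and 1 fell without the adrenal-bearing libraries, 3 rose and 1 fell after the GC correction, and 2 rose and 1 fell under median ratio rescaling, against 5.25% and 11.4% of all genes. 5 of those 13 were rhythmic, beside 25.3% of all genes. Of these, 2 peaked between ZT4 and ZT8, 1 between ZT12 and ZT16 and 2 between ZT20 and ZT24. The polymerase III repressor Maf1 peaked at ZT6.4.

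The amino acid response genes under ATF4 included larger changes than those of the synthetases. Of 19 tested, 6 fell and 0 rose with the high-fat diet, and 8 were rhythmic, where 11.4% of all genes fell, 5.25% rose and 25.3% were rhythmic. Phgdh, the first enzyme of serine synthesis, averaged 8.94 ± 4.71 FPKM under chow and 5.07 ± 1.66 FPKM under the high-fat diet (log2 change -0.68 ± 0.11, adjusted p = 6.59e-05, limma). Asns, asparagine synthetase, averaged 2.85 ± 1.04 and 1.56 ± 0.41 FPKM (log2 change -0.67 ± 0.11, adjusted p = 6.82e-05, limma), and the amino acid transporter subunit Slc3a2 changed by -0.33 ± 0.06 log2 (adjusted p = 9.85e-05, limma). Without the 4 libraries with adrenal transcripts 4 of the 19 fell, with the adipocyte covariate also 4, and after the GC correction 5 fell and 2 rose. The 8 rhythmic genes peaked at ZT16.4 (Atf4), ZT22.5 (Psat1, of the same serine pathway), ZT22.6 (Slc3a2), ZT23.5 (Atf5), ZT0.72 (Nupr1), ZT0.88 (Phgdh), ZT4.1 (Eif4ebp1) and ZT5.03 (Gcn1l1), so 3 of the 8 lay between ZT20 and ZT24. Atf4 itself changed by -0.17 ± 0.07 log2 (adjusted p = 0.0827, limma).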

How the data were processed

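RNA of 36 mouse kidneys was extracted with TRIzol and made into TruSeq RNA libraries, per the labels' protocols. The submitters' processing notes name CASAVA 1.8.2, Bowtie, Cuffnorm and the build mm10, with a version for CASAVA alone. The authors deposited FPKM values, 1 table per diet with 24883 rows. Total reads are unknown, and count models do not apply to FPKM. Rows of repeated symbols (817 rows of 280 symbols) were left out.

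Groups came from the sample titles. The 11144 genes whose mean reached 1 FPKM entered limma (3.58.1, R 4.3.3, trended prior) on the scale log2(FPKM + 0.5), with a Benjamini-Hochberg threshold of 0.05. Changes of low genes are understated on this scale. Level used a mean for each of the 12 groups; rhythm used a cosine and a sine term of 24 h. The fits were tested on simulated data. Genes with values per library were, in each class, the 4 with the smallest p for level and for rhythm, and the highest and lowest by level. To these were added the 2 with the smallest p for a difference in rhythm, and up to 3 per context list. Mars at ZT4, Farsa, Wars, Atf4, Gatc and Qrsl1 were named after their values were seen. The members and lists were chosen with earlier results of these data known. Alternatives changed the pseudocount, the filter, the scaling or the prior, or used a replicate block, an adipocyte covariate, time as a factor, a joint fit, and leaving out ZT0 and ZT4, 4 adrenal-bearing libraries, or each library in turn. A correction for each library's trend over GC content, with and without the block, was added after seeing the data. Positions are those of GENCODE M21 on GRCm38, counted from 1, and promoter windows those of RefSeq on GRCm38.p6. Shared transcript sequence was found with blastn 2.17.0+.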

Additional observations from a re-analysis of the deposited data

How the results depend on the processing

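Counts below are of synthetases past the threshold; pseudocounts and the robust prior moved none of them by over 1.5 times. Level over the day: cytosolic lower 1 in the reported fit, 2 at a mean FPKM of at least 5, 4 without the adrenal-bearing libraries, 2 after the GC correction with or without the replicate block, and 1 to 3 leaving out 1 library. Mitochondrial lower 0, against 1 at a mean FPKM of at least 5, 3 without the adrenal-bearing libraries, and 0 to 1 leaving out 1 library. Higher was 0 in both classes, against 1 cytosolic and 1 mitochondrial after the GC correction with or without the block, and 1 mitochondrial without ZT0 and ZT4. At ZT4 the count was 0, against 1 with no filter, 18 without the adrenal-bearing libraries and 0 to 6 leaving out 1 library; at ZT0 it was 0 to 1 leaving out 1 library. Rhythm over both diets: cytosolic 8, against 5 without ZT0 and ZT4, 13 with time as a factor and 5 to 12 leaving out 1 library; mitochondrial 3, against 1 under median ratio rescaling, without ZT0 and ZT4 or after the GC correction.

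Under chow the cytosolic count was 4, against 2 under median ratio rescaling, with the replicate block or without ZT0 and ZT4, and 0 with time as a factor. Under the high-fat diet it was 1 in each class. The cytosolic count was 0 under median ratio or upper quartile rescaling, with the replicate block, without ZT0 and ZT4 and after the GC correction with or without the block, and 7 with time as a factor. The mitochondrial count was 0 under both rescalings, with the replicate block, without ZT0 and ZT4, in the fit over all 36 libraries and after the GC correction with the block, and 3 with time as a factor. Leaving out 1 library gave 0 to 1 in each class. The cause of these changes was not tested, except that fits without times or libraries hold fewer samples. The labels do not say that a replicate number marks a shared litter, batch or day, so the numbers were not taken to pair samples. Same-numbered libraries of different groups deviated together at a mean r of 0.03 (39 of 119 pairs over 0.1), against -0.007 for different numbers (139 of 475). At the same time under the other diet, same-numbered libraries gave a mean r of 0.06 (6 of 12). The replicate block gave 7 cytosolic rhythms over both diets. Depth limits the genes near 1 FPKM, such as Mars2.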

Other observations

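Several synthetases zigzagged from one time to the next under the high-fat diet, a pattern noticed in the data that a 24 h wave cannot hold. Iars2, the mitochondrial isoleucine enzyme, averaged 19.5 ± 3.66, 22.3 ± 1.70 and 20.9 ± 1.70 FPKM at ZT0, ZT8 and ZT16 but 15.5 ± 1.00, 16.2 ± 0.56 and 16.6 ± 0.93 FPKM at ZT4, ZT12 and ZT20 (SD, n = 3 each). Nars, for asparagine, averaged 32.3 ± 2.01, 32.1 ± 3.41 and 36.1 ± 2.48 FPKM against 26.4 ± 1.46, 26.6 ± 2.11 and 28.3 ± 0.90 FPKM in the same order. The Iars2 transcript shares 2034 of its 5471 bases with Rab3gap2 on the other strand, and whether the counting used strand is not given. Group means alternated through all 6 times, higher at ZT0, ZT8 and ZT16, for 11 of 20 cytosolic and 6 of 15 mitochondrial synthetases under the high-fat diet, and for 37.8% of all genes tested. The opposite alternation, lower at ZT0, ZT8 and ZT16, was seen under that diet for 0 of 20 cytosolic and 3 of 15 mitochondrial synthetases and for 13.2% of all genes. Under chow group means alternated with higher values at ZT0, ZT8 and ZT16 for 2 of 35 synthetases, Dars and Hars, and for 12.1% of all genes. The opposite alternation was seen under chow for 0 of 35 synthetases and 7.42% of all genes. The slope of library values over GC content also differed between these times under the high-fat diet, at -0.12 ± 0.09 log2 per 10 points of GC for ZT0, ZT8 and ZT16 and 0.05 ± 0.09 for ZT4, ZT12 and ZT20 (SD, n = 9 libraries each). Its part in the alternation was not tested. With time as a factor rather than a wave, 13 of 20 cytosolic and 4 of 15 mitochondrial synthetases differed over the day (limma, adjusted p under 0.05), among them Iars (adjusted p = 0.00062, limma), Tars and Nars, and 41.6% of all genes did.

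Dars, the aspartate enzyme, had the widest spread of the cytosolic class, from 10.3 FPKM in chow ZT4 replicate 2 to 39.3 FPKM in chow ZT4 replicate 4, libraries of the same group.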
